A study of Mus musculus with 12 samples.

Results

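The interferon-inducible GTPases described here are 6 genes, the immunity-related GTPases (IRG) Iigp1, Igtp, Irgm1 and Irgm2 and the guanylate-binding proteins (GBP) Gbp2 and Gbp3. They were taken as every probe set of the array annotated to one of these symbols alone, which gave 8 of the 45101 probe sets on the array. Iigp1 and Gbp2 had 2 probe sets each and the other members had 1. For each gene the probe set with the highest mean over all 12 arrays leads (1419043_a_at for Iigp1, 1417141_at for Igtp, 1418825_at for Irgm1, 1417793_at for Irgm2, 1435906_x_at for Gbp2 and 1418392_a_at for Gbp3). All 6 leading probe sets passed a filter on variance that left 19068 probe sets for testing. RefSeq places Iigp1 on chromosome 18, Igtp, Irgm1 and Irgm2 on chromosome 11, and Gbp2 and Gbp3 on chromosome 3 of the mouse.

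The study asked which genes respond to the steroid receptor RNA activator (SRA), a non-coding RNA coregulator of nuclear receptors, in mature adipocytes. RNA was hybridised to Affymetrix Mouse Genome 430 2.0 arrays, 3 biological replicates in each of 4 groups. In ST2 cells, a mouse marrow-derived mesenchymal line, the retrovirus pMSCV-SRA was compared with empty pMSCV vector at day 4 of differentiation. In 3T3-L1 cells, a mouse preadipocyte line, a retroviral hairpin against SRA (pSuperior-shSRA, here shSRA) was compared with a control hairpin (pSuperior-shcontrol, here shControl) at day 8. All 4 groups received MDIT, a cocktail of 0.5 mM 3-isobutyl-1-methylxanthine, 1 µM dexamethasone, 0.167 µM insulin and 5 µM troglitazone. The labels call the 3T3-L1 controls empty vector, whereas the series design and the methods name a control hairpin. The SRA cDNA in pMSCV-SRA is human, infected ST2 cells were selected with puromycin, and only 1 hairpin sequence was profiled. Each comparison therefore lies within 1 cell line, and line, day, vector and medium cannot be told apart between lines.

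Interferons bind receptors at the cell surface and signal through Janus kinases to STAT transcription factors. Activated STAT factors bind the gamma-activated site (GAS), and a complex that contains IRF9 binds the interferon-stimulated response element (ISRE). Through these elements transcription of IRG and GBP genes is strongly induced. The proteins are large GTPases of cell-autonomous immunity that gather on the vacuoles of intracellular pathogens such as Toxoplasma and help to disrupt them. Within the IRG family, Iigp1 (Irga6) is an effector that loads onto the vacuole, whereas Irgm1, Irgm2 and Igtp (Irgm3) are regulators that sit on the cell's own membranes and hold the effectors inactive there. Gbp2 and Gbp3 belong to the GBP family, whose members assemble on pathogen membranes.

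The promoters of the members are shown for the letters of these interferon-responsive elements. RefSeq promoter windows on GRCm38.p6, from 250 bases before the annotated transcription start to 50 after it, were matched for 5 of the 6 members, with 2 windows for Gbp3. The ISRE core was searched as GAAA, 2 unspecified bases and GAAA, and the GAS as TTCNNNGAA, on both strands, where N is any base. The 100 bases just before the start are printed 5′ to 3′ on the strand of the gene, with bases that match either motif in capitals.
Igtp, chr11:58199456-58199555, plus strand: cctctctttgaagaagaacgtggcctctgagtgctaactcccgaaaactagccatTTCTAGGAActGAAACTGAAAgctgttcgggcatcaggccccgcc
Irgm2, chr11:58214877-58214976, plus strand: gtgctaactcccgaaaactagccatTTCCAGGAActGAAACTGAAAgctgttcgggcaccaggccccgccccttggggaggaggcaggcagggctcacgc
Irgm1, chr11:48871421-48871520, minus strand: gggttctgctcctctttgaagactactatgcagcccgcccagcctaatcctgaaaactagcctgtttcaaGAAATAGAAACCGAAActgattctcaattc
Gbp2, chr3:142620563-142620662, plus strand: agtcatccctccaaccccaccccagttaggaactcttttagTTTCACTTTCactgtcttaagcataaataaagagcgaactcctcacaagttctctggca
Gbp3, chr3:142559944-142560043, plus strand: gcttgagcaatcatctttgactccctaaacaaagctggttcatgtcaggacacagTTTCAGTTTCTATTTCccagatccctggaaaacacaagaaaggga

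An ISRE core was found in a window of each of these 5 members, in Gbp3 only in the first of its windows. Of all 32841 promoter windows searched, 3.44% held an ISRE core, 8.3% held a GAS and 0.454% held both. Igtp and Irgm2 held both, with the GAS at bases -45 to -37 and the ISRE core at -34 to -25 of Igtp, and the GAS at -75 to -67 and the ISRE core at -64 to -55 of Irgm2, where -1 is the base before the start. The windows of these neighbouring genes aligned over 265 bases with 244 identical (92.1%), so that their motif matches are not separate instances. Irgm1 held overlapping ISRE cores at -30 to -21 and -24 to -15. On the opposite strand, Gbp2 held an ISRE core at -59 to -50, and Gbp3 held overlapping ISRE cores at -45 to -36 and -39 to -30. These matches describe the letters of the windows and were not measured as bound sites.

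**Figure D1:**
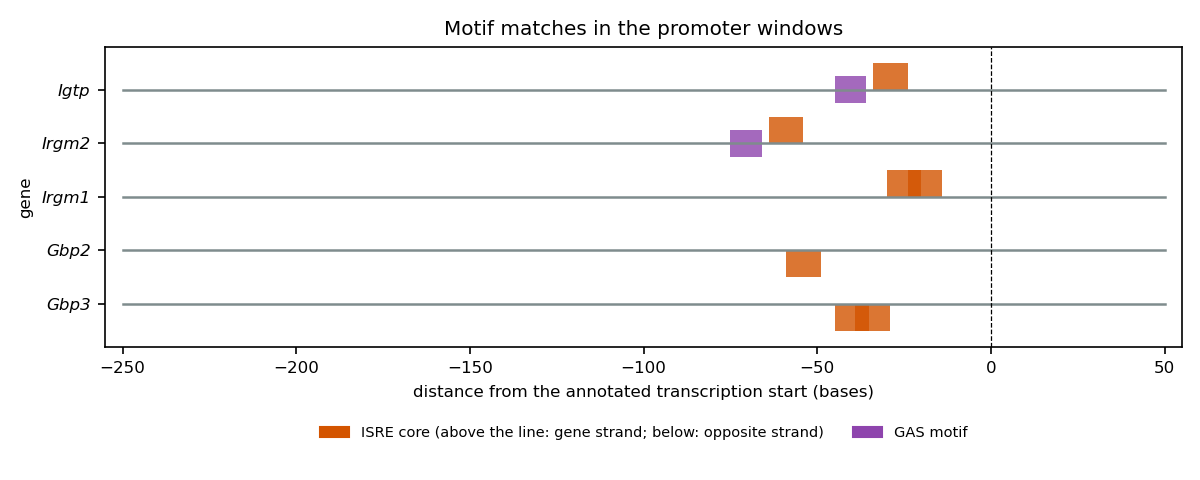
Position of the motif matches in the promoter windows of 5 members, as distance in bases from the annotated transcription start (dashed line), with ISRE cores in orange (above the line on the strand of the gene, below it on the opposite strand) and GAS motifs in purple. All matches lie within the 75 bases before the start, and Igtp and Irgm2 carry the same pair of motifs at different distances.

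On these arrays the targeted gene itself was checked first. Sra1 read 9.46, 9.20 and 9.62 on the log2 scale in shSRA adipocytes, against 11.86, 11.67 and 11.84 in shControl adipocytes, a log2 fold change of -2.36 (limma, adjusted p = 5.58e-07). In ST2 adipocytes the mouse Sra1 probe set read 11.13, 11.13 and 11.44 with SRA, against 11.14, 10.67 and 11.24 in controls (log2 fold change 0.22, adjusted p = 0.484), and the groups overlapped. The label of the ST2 SRA group was therefore not checked by this probe set, since the overexpressed cDNA is human. The adipocyte markers Fabp4, the fatty acid carrier, and Adipoq, which encodes adiponectin, read 14.29 or more on the log2 scale on all 12 arrays. Arrays had median log2 values between 6.45 and 6.53 and correlated at 0.944 or more over all probe sets. Among the ST2 controls, replicate 2 stood below the others, with a median deviation of -0.43 from the mean of its group over 14314 bright probe sets (mean log2 of at least 8), against 0.24 for replicate 1 and 0.18 for replicate 3. Without it, the ST2 fold changes of the members were larger, as given with each result.

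Under SRA overexpression, 5 of the 6 GTPases fell in ST2 adipocytes (Iigp1, Igtp, Irgm1, Irgm2 and Gbp3) and none rose, in limma's moderated test with Benjamini-Hochberg adjustment over all tested probe sets at 0.05. The same test called 5.65% of tested probe sets lower and 2.33% higher. The count of 5 fell to 2 without ST2 SRA replicate 2 and to 3 without ST2 control replicate 1. For Gbp2 the log2 fold change was -0.42, with an unadjusted p of 0.0496 and an adjusted p of 0.225. The median log2 fold change was -0.94 over the 6 members, against 0.07 over all tested probe sets. In 3T3-L1 adipocytes with SRA knocked down, 0 of 6 members passed the test in either direction, and 0 did so at an unadjusted p under 0.05 or in limma's nested F classification. There the test called 0.042% of tested probe sets lower and 0.0315% higher, and 533 of the 19068 had an unadjusted p under 0.05. Each value comes from whole cultures, in which fewer cells expressing a gene and less RNA per cell cannot be told apart.

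**Figure D2:**
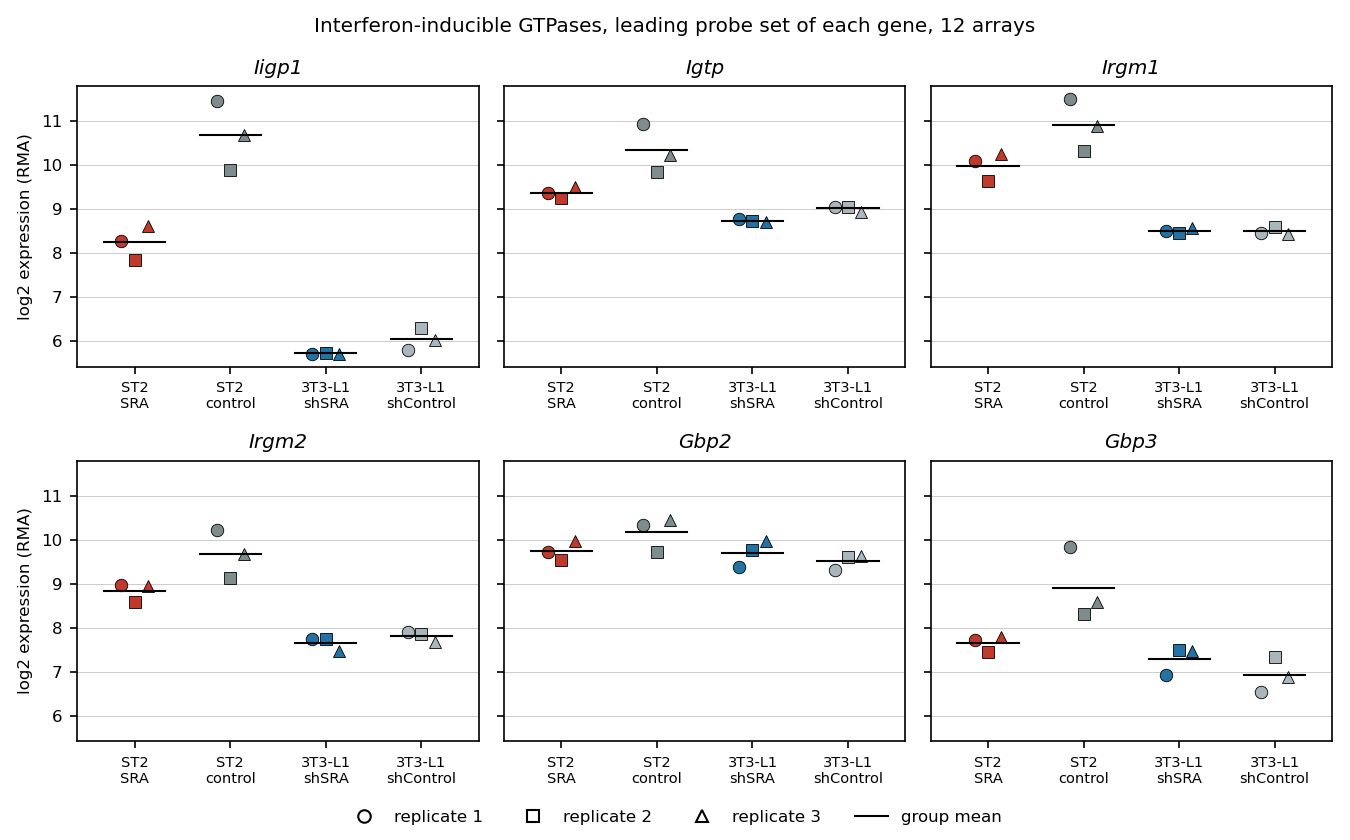
Log2 expression (RMA) of the leading probe set of each GTPase on all 12 arrays, 1 point per array with the replicate number given by its shape and a bar at the mean of each group. In ST2 the 3 SRA arrays lie below the 3 control arrays for every gene but Gbp2, and the control arrays are spread more widely than those of any other group for every gene.

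Iigp1, the IRG effector, showed the largest fold change of the 6. Its leading probe set read 8.28, 7.85 and 8.62 in SRA-overexpressing ST2 adipocytes, against 11.46, 9.89 and 10.68 in ST2 controls. Every SRA array lay more than 1 log2 unit below the lowest control array. The log2 fold change was -2.43 (SE 0.27, adjusted p = 8.99e-06), which leaves 18.6% of the control level. Its other probe set, 1419042_at, read 6.22, 6.06 and 6.74 with SRA, against 9.66, 8.26 and 8.41 in controls, with the same log2 fold change of -2.43 (SE 0.26). With each array left out in turn, the fold change of the leading probe set ranged between -2.82 and -2.04 and passed the test each time. Without ST2 control replicate 2 it was -2.82.

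In 3T3-L1 adipocytes Iigp1 read below the array medians, at 5.71, 5.74 and 5.72 with shSRA, against 5.80, 6.31 and 6.03 with shControl. All shSRA arrays lay below all shControl arrays, the nearest at 5.74 and 5.80, and the log2 fold change was -0.33 (95% confidence interval -0.90 to 0.25, adjusted p = 0.9998). The second probe set of Iigp1 read 5.22, 5.23 and 5.14 with shSRA, against 5.05, 5.40 and 5.19 with shControl, and there the groups overlapped (log2 fold change -0.02). Within same-numbered 3T3-L1 arrays, the leading probe set was -0.09, -0.57 and -0.32 with shSRA relative to shControl, lower in 3 of 3 pairs. The second probe set was lower in 2 of 3. With the pairs as a block, the leading probe set did not pass the test (unadjusted p = 0.0797, adjusted p = 0.9998). Groups of Iigp1 without overlap in this line were therefore seen by only 1 of its probe sets, and the difference did not pass the test.

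Igtp, a regulator of the IRG effectors, also fell in ST2. It read 9.37, 9.25 and 9.51 with SRA, against 10.93, 9.85 and 10.23 in controls, and the groups did not overlap. The log2 fold change was -0.96 (SE 0.20, adjusted p = 0.00441), or 51.4% of control. It passed the test whichever array was left out, with values between -1.20 (without ST2 control replicate 2) and -0.66 (without ST2 control replicate 1). In 3T3-L1 adipocytes Igtp read 8.77, 8.73 and 8.72 with shSRA, against 9.06, 9.05 and 8.94 with shControl. These groups did not overlap either, but the log2 fold change of -0.28 (95% confidence interval -0.70 to 0.15) did not pass the test. Within same-numbered 3T3-L1 arrays, Igtp was -0.29, -0.32 and -0.22 with shSRA relative to shControl, lower in 3 of 3 pairs. In the block fit, whose spread is pooled over both lines, its SE was 0.17 and it did not pass the test (unadjusted p = 0.105, adjusted p = 0.9998). Its 3T3-L1 pairs were not tested alone.

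Irgm1 and Irgm2, the other regulators, were lower by similar amounts in ST2. Irgm1 read 10.10, 9.64 and 10.24 with SRA, against 11.51, 10.32 and 10.90 in controls (log2 fold change -0.91, SE 0.23, adjusted p = 0.0140). Its highest SRA array lay just under its lowest control array, replicate 2. Irgm2 read 8.96, 8.59 and 8.96 with SRA, against 10.22, 9.13 and 9.68 in controls (log2 fold change -0.84, SE 0.21, adjusted p = 0.0166), again without overlap. These 2 calls depended on single arrays. Without ST2 SRA replicate 2 the adjusted p was 0.117 for Irgm1 and 0.119 for Irgm2, and without ST2 control replicate 1 it was 0.0608 for Irgm1 and 0.0687 for Irgm2. Without ST2 control replicate 2 the fold changes were -1.21 for Irgm1 and -1.12 for Irgm2. Limma's nested F classification did not call Irgm2.

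Neither Irgm gene passed the test in 3T3-L1 adipocytes. Irgm1 read 8.49, 8.45 and 8.57 with shSRA, against 8.47, 8.59 and 8.44 with shControl, a log2 fold change of 0.01 (95% confidence interval -0.46 to 0.48). Irgm2 read 7.75, 7.75 and 7.48 with shSRA, against 7.90, 7.87 and 7.67 with shControl, a log2 fold change of -0.15 (95% confidence interval -0.60 to 0.30). The shSRA and shControl groups overlapped for both genes. Within same-numbered 3T3-L1 arrays, Irgm2 was -0.14, -0.12 and -0.19 with shSRA relative to shControl, lower in 3 of 3 pairs. In the block fit pooled over both lines its SE was 0.16, and it did not pass the test (adjusted p = 0.9998). Irgm1 was lower in 1 of 3 pairs.

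Of the GBP members, Gbp3 passed the test in ST2 and Gbp2 did not. Gbp3 read 7.71, 7.45 and 7.79 with SRA, against 9.84, 8.31 and 8.59 in controls, without overlap. Its log2 fold change was -1.26 (SE 0.29, adjusted p = 0.00826), or 41.7% of control. Control replicate 1 stood well above the other control arrays, and without it the fold change was -0.80 (adjusted p = 0.0341). Without ST2 SRA replicate 2 the call was lost (-1.16, adjusted p = 0.0527), and without ST2 control replicate 2 it was -1.56.

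Gbp2 read 9.73, 9.54 and 9.97 with SRA, against 10.33, 9.73 and 10.45 in ST2 controls, and the groups overlapped through control replicate 2. Its log2 fold change was -0.42 (SE 0.20, 95% confidence interval -0.85 to -0.00076). Among the arrays left out, it passed the test only without that array (-0.64, adjusted p = 0.0326). It also passed with array weights in limma (-0.71, adjusted p = 7.79e-05). The estimation of these weights did not converge, and ST2 control replicate 3 received 18.3 against 0.0759 for replicate 2. Its other probe set, 1418240_at, read 9.23, 9.21 and 9.55 with SRA, against 9.85, 9.30 and 9.91 in controls (log2 fold change -0.36, adjusted p = 0.278). The suffix of the leading Gbp2 probe set, x_at, marks probes that can match other transcripts, and signal from related GBP genes cannot be told apart there.

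In 3T3-L1 adipocytes the GBP members had positive fold changes that did not pass the test. Gbp3 read 6.93, 7.49 and 7.47 with shSRA, against 6.54, 7.34 and 6.88 with shControl (log2 fold change 0.38, 95% confidence interval -0.23 to 0.98). Gbp2 read 9.38, 9.78 and 9.97 with shSRA, against 9.32, 9.61 and 9.62 with shControl (log2 fold change 0.19, 95% confidence interval -0.23 to 0.62). The groups overlapped for both genes, and in each group replicate 1 was the lowest. Within same-numbered arrays, the shSRA value minus the shControl value was 0.39, 0.15 and 0.59 for Gbp3 and 0.06, 0.17 and 0.35 for the leading probe set of Gbp2, higher in 3 of 3 pairs. The other Gbp2 probe set was higher in 2 of 3. In the block fit pooled over both lines, the adjusted p was 0.965 for Gbp3 and 0.9998 for Gbp2.

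**Figure D3:**
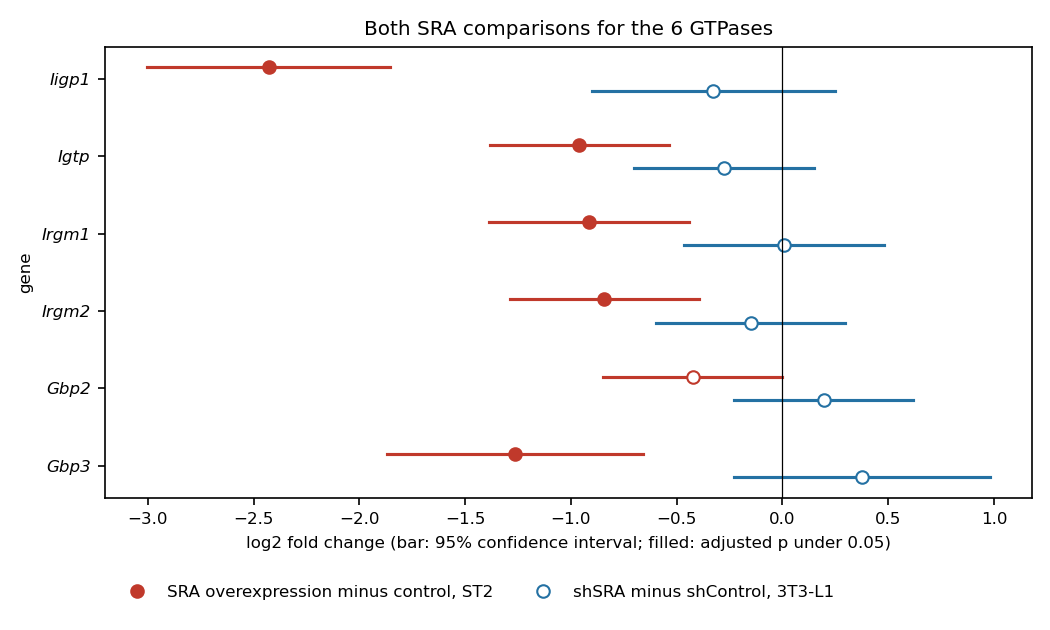
Log2 fold change of the leading probe set of each GTPase in both SRA comparisons, with 95% confidence intervals from limma. The intervals use a spread pooled over all 4 groups, and filled points have an adjusted p under 0.05. The 5 filled points are ST2 values between -2.43 and -0.84, and every 3T3-L1 interval includes 0.

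Counted by overlap alone, 5 of 6 members were lower in every SRA array than in every control array of ST2, as were 9.03% of tested probe sets. In 3T3-L1 adipocytes 2 of 6 leading probe sets (Iigp1 and Igtp, both lower) did not overlap, against 10.2% of tested probe sets in either direction. The highest of the 3 ST2 controls was replicate 1 for 5 of 6 members, and replicate 1 was also the highest for 47.4% of all tested probe sets. The lowest control was replicate 2 for 6 of 6 members and for 76.4% of tested probe sets. Standard deviations of the members lay between 0.13 and 0.38 in ST2 SRA arrays, against 0.38 to 0.81 in ST2 controls. In 3T3-L1 adipocytes they were 0.014 to 0.31 with shSRA and 0.068 to 0.40 with shControl.

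**Figure D4:**
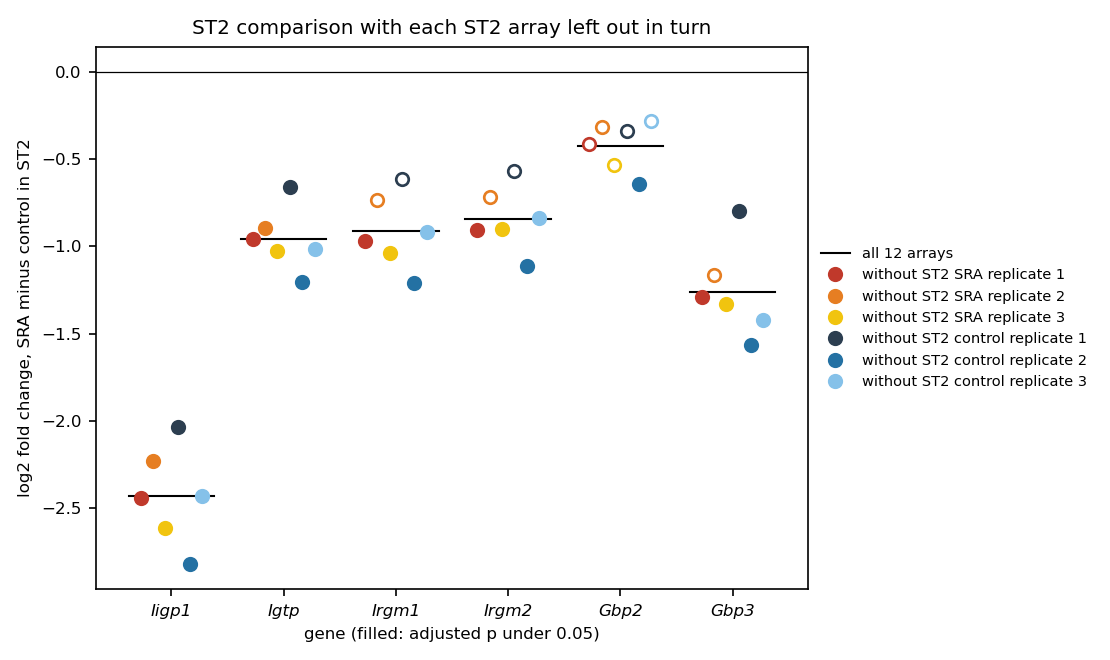
Log2 fold change of each GTPase in ST2 with each of the 6 ST2 arrays left out in turn, with black bars at the value from all 12 arrays; filled points have an adjusted p under 0.05. Iigp1 and Igtp are filled throughout, and for every gene the value farthest from 0 is the one without control replicate 2.

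Whether the response to overexpression differed from that to knockdown was tested directly, as the ST2 fold change minus the 3T3-L1 fold change. Iigp1 (-2.10, adjusted p = 0.00429) and Gbp3 (-1.64, adjusted p = 0.0371) passed this test, 2 of 6 members, where 2.07% of tested probe sets were called lower. For Igtp (-0.68, adjusted p = 0.342), Irgm1 (-0.92, adjusted p = 0.197), Irgm2 (-0.69, adjusted p = 0.374) and Gbp2 (-0.62, adjusted p = 0.416), fold changes of the lines were not shown to differ. The second Iigp1 probe set also passed (-2.41, adjusted p = 0.00087). In 3T3-L1 adipocytes both Iigp1 probe sets read below the array medians and were not shown to be above background. A fall of Iigp1 on knockdown could be hidden there, and its difference rests mainly on the ST2 fold change. The call of Gbp3 was lost with any of 7 single arrays left out (in ST2 the SRA arrays 1 and 2 and the control array 1, in 3T3-L1 the shSRA arrays 2 and 3 and the shControl arrays 1 and 3), with adjusted p between 0.0596 and 0.118. It was also lost without the variance filter (adjusted p = 0.146), after centring the arrays on bright probe sets (0.0523) and with the mean over the probe sets of each gene (0.0605). Without ST2 control replicate 2 all members but Gbp2 passed. Without ST2 control replicate 1 only Iigp1 passed, and the difference was -0.39 for Igtp and -0.42 for Irgm2. With the replicate number as a block, Irgm1 passed as well (adjusted p = 0.00997). This difference compares overexpression in ST2 with knockdown in 3T3-L1, so that the cell line and the kind of manipulation cannot be told apart.

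The GTPases also differed between the lines. All 6 were higher in ST2 controls than in 3T3-L1 shControl adipocytes, where 26.2% of tested probe sets were called higher. The measured log2 difference was 4.63 for Iigp1 (adjusted p = 2.37e-11), 2.41 for Irgm1, 2.00 for Gbp3, 1.87 for Irgm2, 1.32 for Igtp and 0.65 for Gbp2 (adjusted p = 0.00915). Since the 3T3-L1 values of Iigp1 lay below the array medians and the values carry no detection call, its level there was not shown to be above background, and no fold is given. Without ST2 control replicate 3 the adjusted p of Gbp2 was 0.0502. By group mean, each member was highest in ST2 controls and next in ST2 SRA arrays. For Iigp1, Igtp, Irgm1 and Irgm2 every ST2 SRA array still lay above every 3T3-L1 array. For Gbp2 and Gbp3 the ST2 SRA arrays overlapped those of 3T3-L1 adipocytes, and for all members but Iigp1 and Igtp the shSRA and shControl arrays overlapped.

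Other GTPases of the same families fell with the members in ST2. Of 20 further IRG and GBP genes listed, 8 were measured by a probe set of their own and 6 of these passed the variance filter. Of the 8, 4 were lower (Ifi47, Gm4951, Gbp6 and Gbp7), beside 5.65% of tested probe sets. None was higher, and the median log2 fold change was -0.80. Gm4951, an IRG gene of the same subfamily as Iigp1, read 7.15, 6.30 and 6.95 with SRA, against 9.46, 8.05 and 8.62 in controls, a log2 fold change of -1.91 (SE 0.26, adjusted p = 7.84e-05). Its fold change also differed from that of knockdown (-1.88, adjusted p = 0.00738). In 3T3-L1 adipocytes, however, Gm4951 read 5.46, 5.50 and 5.21 with shSRA, against 5.48, 5.52 and 5.27 with shControl. These values lay below the array medians and were not shown to be above background, so that a fall there could be hidden. Ifi47 (Irgd), an IRG effector, read 7.95, 7.86 and 8.23 with SRA, against 9.43, 8.47 and 8.96 in controls (log2 fold change -0.95, adjusted p = 0.00611).

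Among the GBP relatives, Gbp6 read 9.81, 9.12 and 9.41 with SRA, against 11.33, 10.04 and 10.41 in controls (log2 fold change -1.15, adjusted p = 0.00777). Gbp7 read 7.92, 7.68 and 8.14 with SRA, against 9.61, 8.35 and 8.76 in controls (log2 fold change -0.997, adjusted p = 0.0106). For these 4 genes no SRA array reached the lowest control array. Second probe sets of Gbp6 and Gbp7 also passed, at -1.20 for Gbp6 and -1.21 for Gbp7. Gbp2b (log2 fold change -0.60, adjusted p = 0.0665) and Gbp8 (-0.66, adjusted p = 0.0676) did not pass. Irgc1 and Irgq failed the variance filter, with groups that overlapped in both lines. No relative passed the test in 3T3-L1 adipocytes, and 0 did so at an unadjusted p under 0.05. Like Gm4951, the genes Ifi47, Gbp2b and Gbp8 read below the array medians on every 3T3-L1 array, so that a fall there could be hidden. Gbp8 also read below them on every ST2 array. Every shSRA array of Gbp2b lay above every shControl array (log2 fold change 0.20). Without ST2 SRA replicate 2, only 2 relatives were called in ST2. A further 3 probe sets carry several symbols of these families and were not named.

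Of 19 measured genes between interferon receptors and IRF factors, 13 passed the variance filter. Of the 19, 3 were lower in ST2, beside 5.65% of tested probe sets, and none was higher. The median log2 fold change over these genes was 0.05. Socs3, a feedback inhibitor of cytokine receptors, fell by 1.15 on the log2 scale (adjusted p = 0.000218). Stat2, a subunit of the complex that binds the ISRE, fell by 0.90 (adjusted p = 0.0122), and Socs1, an inhibitor of Janus kinases, fell by 0.56 (adjusted p = 0.0279). Irf9, the DNA-binding subunit of that complex, had a log2 fold change of -0.54 (adjusted p = 0.124). Without ST2 SRA replicate 2 only 1 gene of this list was called. Of 9 measured interferon genes only Ifnz, a type I interferon, passed the variance filter, and its log2 fold change was 0.03.

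Of 37 other interferon-stimulated genes measured, 31 passed the variance filter. Of the 37, 16 were lower in ST2 and none was higher (median log2 fold change -0.64). Of all tested probe sets, 5.65% were called lower and 2.33% higher. Ifit1, which binds foreign RNA, fell by 2.02 on the log2 scale (adjusted p = 0.000637). Rsad2, the antiviral enzyme viperin, fell by 1.61 (adjusted p = 0.000101). Trim30a, a tripartite motif protein, fell by 1.39 (adjusted p = 0.000166), and Oas2, a sensor of double-stranded RNA, fell by 1.14 (adjusted p = 0.000739). Among 15 nucleic acid sensors and adaptors, of which 11 passed the variance filter, 5 were lower and none was higher, beside the same shares. Sting1, the adaptor for cytosolic DNA, fell by 0.71 on the log2 scale (adjusted p = 0.00412), and the RNA sensor genes Dhx58 and Ifih1 fell by 1.06 and 0.78. Irf7, a factor that drives interferon transcription, fell by 0.91 (adjusted p = 0.0247). The other sensor called, Ddx58 (RIG-I), named after its value was seen, fell by 0.61 (adjusted p = 0.0338). Leaving out single ST2 arrays moved these counts. Interferon-stimulated genes called were 8 without SRA replicate 2, 10 without control replicate 1 and 25 without control replicate 2. Sensors called were 1 without SRA replicate 2 or control replicate 1, and 3 without SRA replicate 1.

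IRG proteins are placed on membranes with the help of the ATG8 conjugation system of autophagy. Of its 13 measured genes 10 passed the variance filter and none passed the test in ST2. At an unadjusted p under 0.05, 4 were higher, where 4231 of the 19068 tested probe sets reached that threshold in either direction. Map1lc3b, which encodes an ATG8 protein, had a log2 fold change of 0.46 (adjusted p = 0.112). In 3T3-L1 adipocytes 0 genes of the pathway, interferon, sensor, ATG8 and marker lists passed the test. In this line 533 of the 19068 tested probe sets had an unadjusted p under 0.05, in either direction. At that threshold 1 gene each was higher among receptor, STAT and IRF genes, other interferon-stimulated genes and sensors, and none was lower. Named after their values were seen, these were Nlrc5, which drives MHC class I genes (log2 fold change 0.58), Ifi27l2a, a small interferon-induced protein (0.99, adjusted p = 0.721, called by nested F classification), and Tlr4, the receptor for lipopolysaccharide (0.47).

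**Figure D5:**
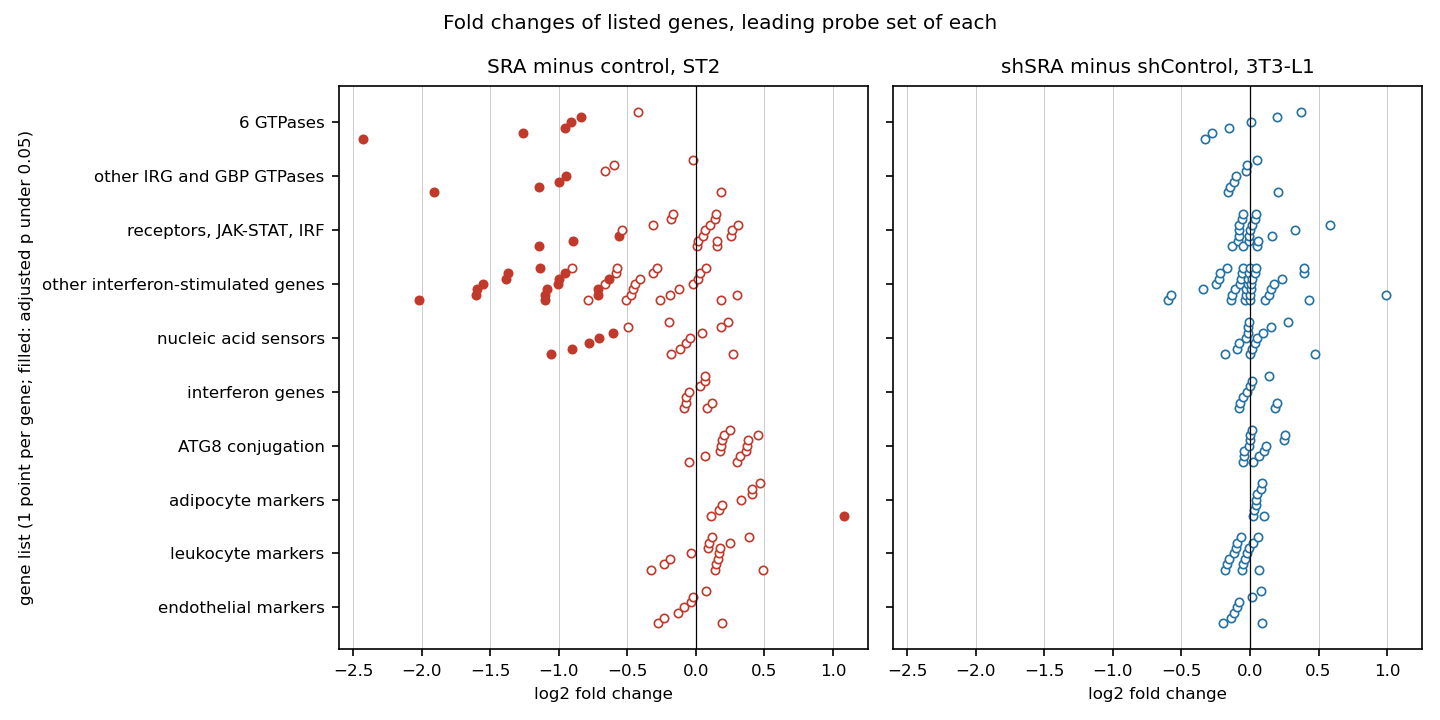
Log2 fold changes of the leading probe set of each listed gene in ST2 (SRA minus control, left) and 3T3-L1 adipocytes (shSRA minus shControl, right), 1 point per gene; filled points have an adjusted p under 0.05. Filled points below 0 occur in the rows of the 6 GTPases, their relatives, the receptor to IRF genes, other interferon-stimulated genes and sensors, and no point is filled in 3T3-L1.

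Markers of other cell types were read beside the GTPases. Of 15 measured leukocyte and macrophage markers, 5 passed the variance filter and none passed the test in ST2 (1 did without control replicate 2). At an unadjusted p under 0.05 with all arrays 0 did, against 4231 of the 19068 tested probe sets. The median log2 fold change of the 15 markers was 0.14. Their summed level on the linear scale was between 1325 and 1518 with SRA, against 1137 to 1468 in ST2 controls. In 3T3-L1 adipocytes it was between 1032 and 1162 with shSRA, against 1089 to 1188 with shControl. Ptprc, the common leukocyte antigen, lay between 3.89 and 4.27 on all 12 arrays. The macrophage marker Adgre1 lay between 5.32 and 5.55, and Cd68, a lysosomal protein of macrophages, had a log2 fold change of 0.49 in ST2 (adjusted p = 0.458). No endothelial marker of 8 passed the variance filter. Of 8 measured adipocyte markers, 5 of which passed the variance filter, 1 was higher in ST2 (3 without control replicate 1), beside 2.33% of tested probe sets. It was Slc2a4, the insulin-responsive glucose transporter (log2 fold change 1.08, adjusted p = 0.000176). The adipocyte sum was between 113226 and 118212 with SRA, against 86638 to 112243 in ST2 controls, and in 3T3-L1 adipocytes it was between 155001 and 161978 with shSRA, against 143893 to 160862 with shControl. In ST2 this adipocyte sum was higher with SRA while the GTPases were lower, and its part in their fall was not tested.

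The genes whose pattern was most like that of the members were sought among 8184 genes. Each gene and the mean of the 6 members were taken as deviations from their own mean in each line, and likeness was the mean absolute difference over the 12 arrays. The nearest were Fam13c (0.0867), Elk3 (0.0979), Zwilch (0.1003), Ms4a4d (0.104) and Cpt1c (0.105). Elk3 is a transcription factor of the ETS family, Zwilch a kinetochore protein and Cpt1c a carnitine palmitoyltransferase. The mean member deviation was 1.17, -0.0062 and 0.54 in ST2 control replicates 1, 2 and 3, so that the likeness includes the spread between these control arrays as well as the difference between groups.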

How the data were processed

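RNA of 12 cultures, 3 in each of 4 groups, was measured on Affymetrix Mouse Genome 430 2.0 arrays from 5 µg total RNA each. The deposited values are log2 expression values made by the authors with robust multi-array average (RMA), which corrects background, normalizes all arrays to 1 distribution and summarizes the probes of a probe set. RMA can shrink differences of dim probe sets and assumes like distributions in all groups. The sources used here give no software version for that step.

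As in the methods of the study, only probe sets that varied (variance above 0.05 across the arrays) were tested, 19068 of 45101. A model of 4 groups was fitted with limma 3.58.1 in R 4.3.3, and moderated tests of each contrast were adjusted over all tested probe sets by the Benjamini-Hochberg method with a threshold of 0.05. Standard errors and 95% confidence intervals come from this fit. The methods of the study also describe testing each comparison while accounting for the other, so these calls are not the study's own. The study reported more altered genes in both comparisons than the 1522 probe sets called here in ST2 and 14 in 3T3-L1 adipocytes. The number of arrays limits the precision. Of all probe sets 34958 carried 1 gene symbol, 932 several and 9211 none in the platform table, and genes were named only from the first kind. For 34754 of these the Entrez identifier was found in RefSeq.

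Members and lists were chosen with earlier results of these data known. The text names the members with every probe set, every measured relative, up to 4 genes of each other list (those of the lowest unadjusted p in ST2), Sra1, Fabp4, Adipoq, Ptprc, Adgre1, Cd68 and the 5 genes most like the members. Ddx58, Nlrc5, Ifi27l2a and Tlr4 are named outside this rule, after their values were seen. Replicates are labelled biological, and p-values measure the spread between these cultures, pooled over all 4 groups. The 3T3-L1 tests and intervals therefore carry the wider spread of the ST2 controls. For Igtp the standard deviation was 0.55 in ST2 controls, against 0.028 with shSRA and 0.068 with shControl. With each line fitted alone, 0 of 6 members passed in 3T3-L1 adipocytes as well. Replicate numbers paired the 3T3-L1 arrays, where deviations of same-numbered arrays correlated at 0.587, 0.586 and 0.382 over tested probe sets. In ST2 same-numbered arrays correlated at 0.039, 0.268 and 0.527, and differently numbered arrays at -0.44 to 0.21. Whether ST2 arrays were paired was therefore not settled, and the main test treats them as unpaired. Motifs and promoter identity were computed with Python 3.11.15 and Biopython 1.88. Alternatives were nested F classification, no variance filter, the replicate number as a block, each line fitted alone, a second quantile normalization, centring on bright probe sets, array weights, other summaries over probe sets, and each array left out. Protein sequences and the promoter of Iigp1 were not analysed here.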

Additional observations from a re-analysis of the deposited data

How the results depend on the processing

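No member reversed its direction in the ST2 comparison, and 0 of 6 members passed the test in 3T3-L1 adipocytes, under any of the 21 alternatives. Of the alternative fold changes of members over all 4 contrasts, 441 kept their direction and side of the threshold, 17 were no longer past it, 10 were newly past it and 6 changed sign. These 6 were all of Irgm1 in 3T3-L1 adipocytes, whose fold change of 0.0092 was -0.0131 after a second quantile normalization, -0.0159 after centring on bright probe sets, -0.0358 with array weights and -0.0240 to 0.0542 with 1 array left out, never past the threshold. The cause of the changes below was not tested, except that a left-out array leaves fewer samples. Members lower in ST2 (5) ranged from 2 to 6 with 1 array left out. Members that differed between the SRA comparisons (2) ranged from 1 to 5 with 1 array left out, and were 1 without the variance filter, with arrays centred on bright probe sets or with the mean over probe sets, and 6 with array weights. Array weights ran from 0.0759 (ST2 control replicate 2) to 18.3 (ST2 control replicate 3), and their estimation stopped before it converged.

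In ST2, with 1 array left out, relatives called (4) ranged from 2 to 6, receptor to IRF genes (3) from 1 to 4, other interferon-stimulated genes (16) from 8 to 25, sensors (5) from 1 to 5, adipocyte markers (1) from 1 to 3 and leukocyte markers (0) from 0 to 1. Array weights called 5 receptor to IRF genes, 30 interferon-stimulated genes, 8 sensors, 4 ATG8 genes, 5 adipocyte and 2 leukocyte markers in ST2, and 1 receptor to IRF gene in 3T3-L1 adipocytes. Sensors called were 3 without the variance filter or with the mean over probe sets and 2 by nested F classification. Adipocyte markers called were 2 with the mean over probe sets or with the most variable one of each gene, and 1 ATG8 gene was called after centring on bright probe sets. Nested F called 1 interferon-stimulated gene in 3T3-L1 adipocytes. Over all probe sets it called 1008 in ST2 and 90 in 3T3-L1 adipocytes, against 1522 and 14 by the moderated test.

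With the replicate number as a block, 25 other interferon-stimulated genes, 1 ATG8 gene, 2 adipocyte markers and 1 leukocyte marker were called in ST2, and 1 interferon-stimulated gene in 3T3-L1 adipocytes. Of the members the replicate block changed only the difference between comparisons for Irgm1 (-0.92, adjusted p = 0.00997). Over all probe sets the block raised the calls to 3023 in ST2 and 101 in 3T3-L1 adipocytes.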
